A study of Mus musculus with 16 samples.

Results

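Pf4, Ppbp, Itga2b, Itgb3 and F5, genes best known from platelets and blood clotting, were followed through myeloid cells sorted from healing bone tunnels. They are 5 of the 20200 genes in the count table, found by their gene names, and they were chosen from their measured levels in these libraries. Their levels and the differences between groups are therefore given as a description and carry no test. Mice had anterior cruciate ligament reconstruction (ACLR), in which a tendon graft is passed through tunnels drilled in bone, and cells were taken from the interface tissue around the graft on day 1 or day 14. All were male mice aged 12 weeks, of the strain C57BL/6 per the labels (wild-type C57BL/6J in the methods), with WT in the sample titles of day 1 and W in those of day 14, and no unoperated mice were among the 16 libraries.

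Each library came from cells pooled over several mice, and each of the 8 groups (4 populations on 2 days) had 2 libraries. All sorts took live CD45+ CD11b+ cells without lineage markers. CD9+ macrophages were Ly6G- F4/80+ CD9+ cells, a gate that also took the rare cells with CX3CR1. CX3CR1+ macrophages were Ly6G- F4/80+ CX3CR1+ cells without CD9. F4/80- cells were the Ly6G- CD11b+ cells without F4/80, and neutrophils were the Ly6G+ cells. The lineage antibodies included those to CD34 and c-Kit but none to CD41, the platelet integrin chain that Itga2b encodes. The study speaks of biological replicates from pools of mice, so errors and p-values measure the spread between pools.

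Platelets are cell fragments shed by megakaryocytes in the bone marrow. Their alpha granules release the chemokines PF4 (CXCL4) and PPBP (CXCL7), and their surface carries the fibrinogen receptor, a pair of the integrin chains alphaIIb (Itga2b) and beta3 (Itgb3). The beta3 chain also pairs with alphav (Itgav) on other cells, including osteoclasts and macrophages. Coagulation factor V, encoded by F5, is made by the liver and stored in platelets. It is the cofactor with which factor Xa turns prothrombin into thrombin, the protease that forms fibrin clots. PF4 is also made by some macrophages, and alphaIIb is carried by early blood progenitors and mast cells, so none of these genes marks platelets by itself.

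Pf4 and Ppbp are neighbours on the plus strand of chromosome 5 (mm10), at positions 90772435 to 90773383 and 90768518 to 90770063. Itga2b and Itgb3 lie on chromosome 11, at 102453297 to 102470122 on the minus strand and 104608000 to 104670476 on the plus strand. F5 lies on the plus strand of chromosome 1 at 164151838 to 164220277. F5 overlaps Gm16548 on the other strand and Gm16588 on its own, which held 396 and 242 counts over all libraries beside 50036 for F5. The other members overlap no other gene of the table.

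The 250 bases before the starts of Pf4 and Ppbp are shown because these neighbours had the same order of levels on day 1 and parted on day 14. The sequences are from RefSeq (GRCm38.p6), which held such a window for 4 of the 5 genes. Both strands were searched for GATAA, a core bound by GATA factors, GAGGAA, a core bound by ETS factors, and TATAAA, the TATA box, and capitals mark the matches.
Pf4, chr5:90772185-90772434, plus strand: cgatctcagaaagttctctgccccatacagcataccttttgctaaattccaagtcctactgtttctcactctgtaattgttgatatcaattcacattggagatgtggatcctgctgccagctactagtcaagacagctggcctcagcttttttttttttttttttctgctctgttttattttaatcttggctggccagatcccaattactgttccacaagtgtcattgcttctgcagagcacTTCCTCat
Ppbp, chr5:90768268-90768517, plus strand: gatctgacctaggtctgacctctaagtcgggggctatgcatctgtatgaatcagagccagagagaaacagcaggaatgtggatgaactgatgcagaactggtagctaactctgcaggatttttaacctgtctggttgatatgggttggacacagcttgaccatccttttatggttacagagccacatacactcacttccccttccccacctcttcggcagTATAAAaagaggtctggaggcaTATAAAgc
The Pf4 window held GAGGAA on the minus strand, beginning 8 bases before the start, and the Ppbp window held TATAAA beginning 30 and 8 bases before the start. GATAA was in neither. Of 27025 windows of this length, 23.02% held GATAA, 23.13% GAGGAA and 12.97% TATAAA.

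The libraries held 9233952 to 19814119 counts each. The sort antigens followed the labels for Ly6g, at 77.7 to 283 CPM (counts scaled to a common library size by TMM) in neutrophils and at most 10.4 elsewhere, and for Adgre1, which encodes F4/80, at 119.7 to 216 CPM in both macrophage populations and at most 13.9 in F4/80- cells. Cd9 was at 141 to 183 CPM in CD9+ and 6.62 to 21.3 in CX3CR1+ macrophages, and higher still in neutrophils. The CD9+ libraries of day 1 were the least alike, with a correlation of log2 CPM of 0.936 against 0.976 to 0.988 in the other groups. Of 9 genes that define platelets and megakaryocytes, 8 were in the table and none was above 6.82 CPM in any library. In CD9+ macrophages of day 1, 7 of the 8 had a mean of at least 1 CPM. A list of 4 eosinophil genes summed in the CD9+ libraries to 488 to 547 CPM on day 1 and 5769 to 9369 on day 14. A list of 6 macrophage genes summed there to 1386 to 1997 and then 885 to 1384 CPM. In CX3CR1+ macrophages its sum was 1956 to 2048 and then 1421 to 1552 CPM. In bulk libraries, fewer cells of a type and less RNA per cell cannot be told apart. The part of eosinophils in any change of the CD9+ macrophages over time was not tested.

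The members fell into 3 patterns. Pf4 and Ppbp were highest in CD9+ macrophages on day 1, Itga2b in F4/80- cells, and Itgb3 and F5 in neutrophils on day 14. The highest group mean exceeded the lowest 422.9-fold for Pf4, 257.1-fold for Ppbp, 139.4-fold for Itga2b, 30.2-fold for Itgb3 and 12-fold for F5. Across the 16 libraries the Pearson correlation of log2 CPM was 0.86 between Pf4 and Ppbp (Spearman 0.82) and 0.96 between Itgb3 and F5 (Spearman 0.92). Itga2b had correlations of 0.08 with Pf4 and 0.33 with Itgb3, the other chain of the platelet fibrinogen receptor (Spearman -0.13 and 0.19). These values describe libraries that share groups and sorts.

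**Figure D1:**
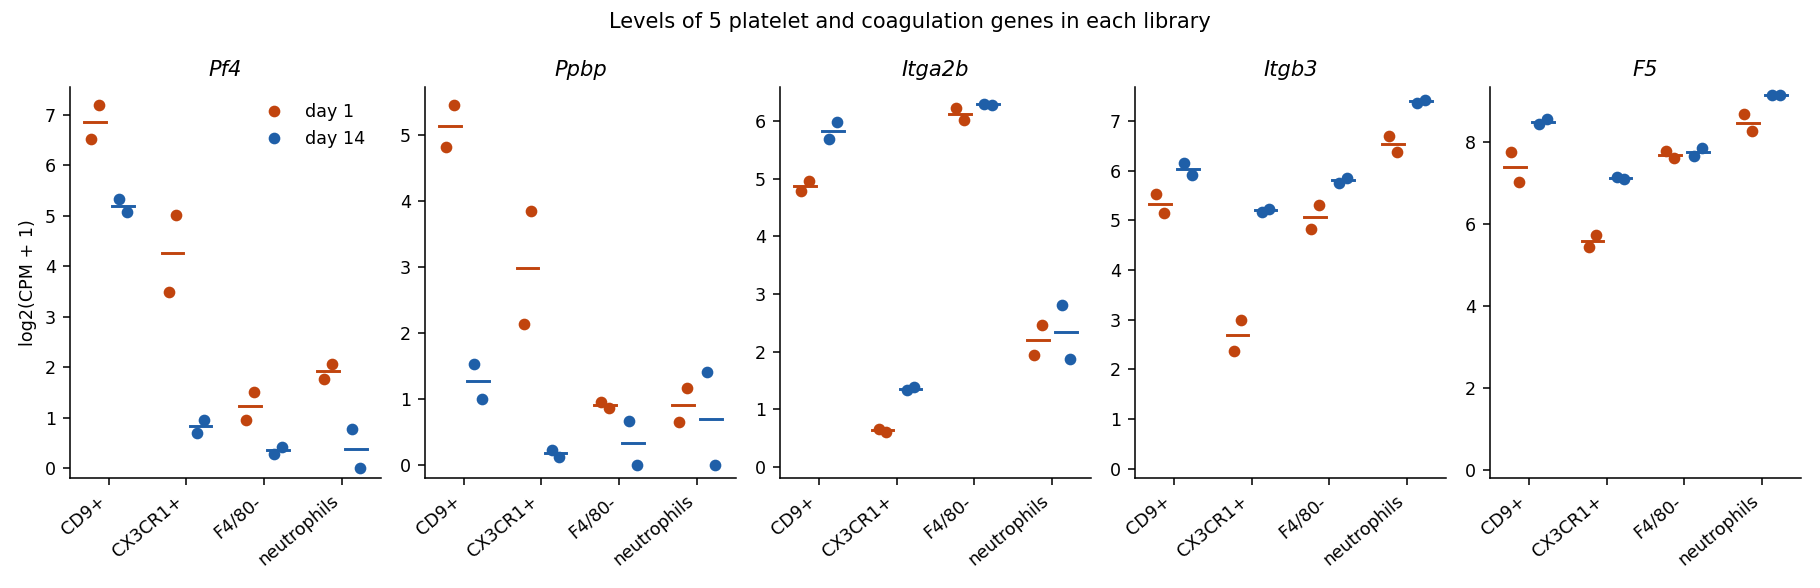
Levels of Pf4, Ppbp, Itga2b, Itgb3 and F5, as log2(CPM + 1), in each of the 16 libraries; each panel is 1 gene with its own vertical scale. Points are libraries, with day 1 and day 14 in different colours, and the lines are group means. Pf4 and Ppbp are highest in CD9+ macrophages on day 1, Itga2b in F4/80- cells, and Itgb3 and F5 in neutrophils on day 14.

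Levels of different genes were compared per kilobase of exon, with exon lengths of 721 bases for Pf4, 1083 for Ppbp, 5454 for Itga2b, 5901 for Itgb3 and 7430 for F5. In CD9+ macrophages on day 1 Pf4 was at 127 and 201 CPM per kb, Ppbp at 25.2 and 39.4 and F5 at 28.7 and 17.4. Itgb3 was at 7.64 and 5.85 CPM per kb there and Itga2b at 4.9 and 5.5. Pf4 thus had the highest level of the 5 genes in these libraries. In neutrophils on day 14 F5 was highest, at 75.6 and 75.2 CPM per kb, followed by Itgb3 at 27.8 and 29, and Pf4 was at 0.98 and 0.

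The level of Pf4 was highest in the CD9+ libraries on both days, and on day 1 the CX3CR1+ libraries came next. On day 1 it was at 91.4 and 145 CPM in CD9+ macrophages and 10.3 and 31.3 in CX3CR1+ macrophages. F4/80- cells of day 1 were at 0.934 and 1.84 CPM and neutrophils at 2.42 and 3.17. The CD9+ libraries lay above all others, and the CX3CR1+ libraries above every F4/80- and neutrophil library. On day 14 Pf4 was at 39.3 and 32.7 CPM in CD9+ macrophages, 0.621 and 0.946 in CX3CR1+ macrophages, 0.224 and 0.334 in F4/80- cells and 0.707 and 0 in neutrophils. On that day the CD9+ cells stood alone, with all other libraries under 1 CPM.

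The level of Pf4 was lower on day 14 than on day 1 in each population, without overlap of the libraries. The difference was 3.28-fold in CD9+ macrophages (log2 -1.71, SE 0.42) and 26.6-fold in CX3CR1+ macrophages (log2 -4.72, SE 0.62). The CX3CR1+ libraries of day 14 held 17 Pf4 counts in all, and without CX3CR1+ library 2 of day 1 the log2 difference was -3.75. In F4/80- cells and neutrophils of day 14 only 7 and 6 counts were left, so the size of the difference is poorly fixed there. The CD9+ mean was 5.67-fold that of CX3CR1+ macrophages on day 1 (log2 2.51, SE 0.43) and 45.9-fold on day 14 (log2 5.51, SE 0.62). In the order of means, the CD9+ groups of day 1 and day 14 and the CX3CR1+ group of day 1 did not overlap with their neighbours, while from F4/80- cells of day 1 downward each group overlapped with the next.

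Ppbp had the same order as Pf4 in the macrophages of day 1, at a lower level. It was at 27.3 and 42.6 CPM in CD9+ macrophages, 3.38 and 13.4 in CX3CR1+ macrophages, 0.934 and 0.829 in F4/80- cells and 0.57 and 1.25 in neutrophils. On day 14 the CD9+ macrophages, which still held Pf4, were at 1.9 and 1.01 CPM. CX3CR1+ macrophages of day 14 were at 0.177 and 0.0946 CPM, F4/80- cells at 0.596 and 0 and neutrophils at 1.65 and 0. Only the macrophage groups of day 1 stood clear of the rest, and from CD9+ macrophages of day 14 downward each group overlapped with the next.

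In CD9+ macrophages the level of Ppbp was 24-fold lower on day 14 than on day 1 (log2 -4.57, SE 0.85), with 803 counts on day 1 and 30 on day 14. For CX3CR1+ macrophages 329 counts of day 1 stood against 3 on day 14, a ratio of 57.9 with a 95% counting interval of 19.6 to 282. The fitted log2 difference there was -5.84 (SE 1.16), which depends on the prior count, and it was -4.58 without CX3CR1+ library 2 of day 1. F4/80- cells held 37 and 8 Ppbp counts on the 2 days and neutrophils 23 and 14, and in neutrophils the libraries of the days overlapped.

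Ppbp had a larger share of the chemokine reads in the macrophages of day 1 than in CD9+ macrophages of day 14. Ppbp made up 23% (95% Wilson interval 21 to 25.1) of the Ppbp and Pf4 reads in CD9+ library 1 and 22.8% (95% Wilson interval 20.9 to 24.8) in library 2. In CX3CR1+ macrophages of day 1 the share was 24.8% (95% Wilson interval 20.3 to 29.9) and 29.9% (95% Wilson interval 27 to 33.1). In CD9+ macrophages of day 14 it was 4.62% (95% Wilson interval 3.01 to 7.03) and 2.99% (95% Wilson interval 1.63 to 5.42). The interval of CX3CR1+ library 2 lies above both CD9+ intervals of day 1. The CD9+ intervals of day 14 lie below every macrophage interval of day 1. Outside the macrophages, neutrophil library 1 of day 14 was at 70% (95% Wilson interval 48.1 to 85.45), with 14 Ppbp and 6 Pf4 reads. All these intervals cover counting error only, because the reads carried no molecular identifiers and copies from PCR cannot be told apart. The Pf4 reads of CD9+ macrophages on day 14 thus came with fewer Ppbp reads each than on day 1.

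**Figure D2:**
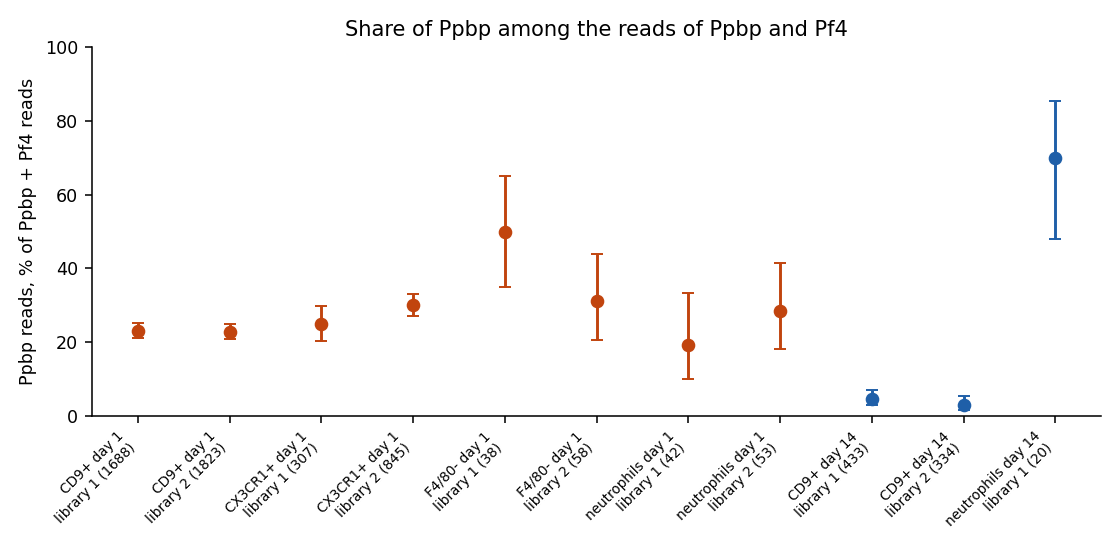
Percent of the Ppbp and Pf4 reads that belonged to Ppbp, in the 11 libraries with at least 20 such reads, with the read total in each label and day 1 and day 14 in different colours. Bars are 95% Wilson intervals. The macrophage libraries of day 1 sit between 22.8% and 29.9%, and the CD9+ libraries of day 14 at 4.62% and 2.99%. F4/80- cells of day 1 are at 50% and 31%, and neutrophils of day 1 at 19.05% and 28.3%. Neutrophil library 1 of day 14 is at 70%. These non-macrophage libraries have few reads and wide intervals.

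The 8 genes that define platelets summed in CD9+ macrophages to 11.9 to 17.9 CPM at day 1 and 3.23 to 8.37 at day 14. On day 1, 7 of the 8 had a mean of at least 1 CPM there, against at most 2 in any other group. In CX3CR1+ macrophages of day 1, where Pf4 reached 31.3 CPM, they summed to 0.846 to 1.16 CPM, and Gp1ba, Gp9 and Treml1 were at 0 in both libraries. In neutrophils the sum was 6.43 to 8.84 CPM on day 1 and 6.74 to 12.6 on day 14, at far less Pf4. Tubb1, the beta1 tubulin of platelets, was at 6.82 and 2.77 CPM in the CD9+ libraries of day 1. Gp1ba, a chain of the platelet receptor for von Willebrand factor, was at 0 and 3.6 CPM in the same libraries, so these genes did not order them alike. Gp9, another chain of that receptor, was at 0.281 and 1.75 CPM there, was at most 1.75 CPM in any library and did not pass the filter. Gp1bb was not analysed here. The part of platelets in the levels of Pf4 and Ppbp was not tested.

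Itga2b had its highest level in F4/80- cells. It was at 74.3 and 63.8 CPM there on day 1 and 77.9 and 76.5 on day 14. CD9+ macrophages were at 26.7 and 30.0 CPM on day 1 and 50.5 and 62 on day 14. CX3CR1+ macrophages, which held Pf4 and Ppbp reads on day 1, were at 0.579 and 0.529 CPM on day 1 and 1.51 and 1.61 on day 14. Neutrophils were low too, at 2.85 and 4.51 and then 6.01 and 2.65 CPM. Apart from the neutrophil groups, no group overlapped with its neighbour in the order of means.

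On day 1 the level in CD9+ macrophages was 51.2-fold that in CX3CR1+ macrophages (log2 5.65, SE 0.34) and 2.44-fold lower than that in F4/80- cells (log2 -1.29, SE 0.23). On day 14 it was 36.1-fold higher (log2 5.17, SE 0.32) and 1.37-fold lower (log2 -0.46, SE 0.23). In CD9+ macrophages Itga2b was 1.98-fold higher on day 14 than on day 1 (log2 0.99, SE 0.24), the opposite direction to Pf4 and Ppbp. In F4/80- cells the days differed by 1.12-fold (log2 0.16, SE 0.23).

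The 5 genes with the pattern most like Itga2b over the 16 libraries were Cpa3 (r = 0.974), Prss34 (0.967), Gata2 (0.964), Ms4a2 (0.963) and Nkg7 (0.963). Cpa3 and Prss34 encode granule proteases of mast cells and basophils, Ms4a2 the beta chain of the high-affinity IgE receptor, and Gata2 a transcription factor of progenitors, mast cells and basophils. By rank correlation Cpa3, Prss34 and Gata2 were still among the 5 nearest, with Mcpt8 and Cd200r3.

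A list of 5 basophil and mast cell genes (Mcpt8, Cpa3, Ms4a2, Fcer1a and Gata2) summed to 692 to 824 CPM in F4/80- cells on day 1 and 1139 to 1223 on day 14. All but Fcer1a were among the genes nearest to Itga2b by Pearson or rank correlation. The sum therefore repeats that likeness and is no separate observation. In CD9+ macrophages the sum was 58.8 to 114 and then 179.7 to 226 CPM, with all 5 genes at a mean of at least 1 CPM. It was at most 1.51 CPM in CX3CR1+ macrophages and 7.13 in neutrophils. A list of 4 progenitor genes held Cd34, Kit, Mpo and Elane. It summed to 1853 to 2664 CPM in F4/80- cells, 438 to 1692 in CD9+ macrophages and 84.1 to 222 in the rest. In F4/80- cells of day 1 most of this sum came from Mpo and Elane, and only a small part from Cd34 and Kit. The platelet-defining genes were at 3.13 to 4.57 CPM in F4/80- cells, where Itga2b was highest, with Gp6, Treml1 and Tubb1 at 0 on day 14. The sort left out cells that stained for CD34 or c-Kit, markers of progenitors and mast cells, and the transcripts were at 15 and 12.4 CPM (Cd34) and 30.6 and 32.2 CPM (Kit) in F4/80- cells of day 1, with Kit at 63.3 and 78.7 CPM on day 14. The part of any of these cell types in the level of Itga2b was not tested.

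**Figure D3:**
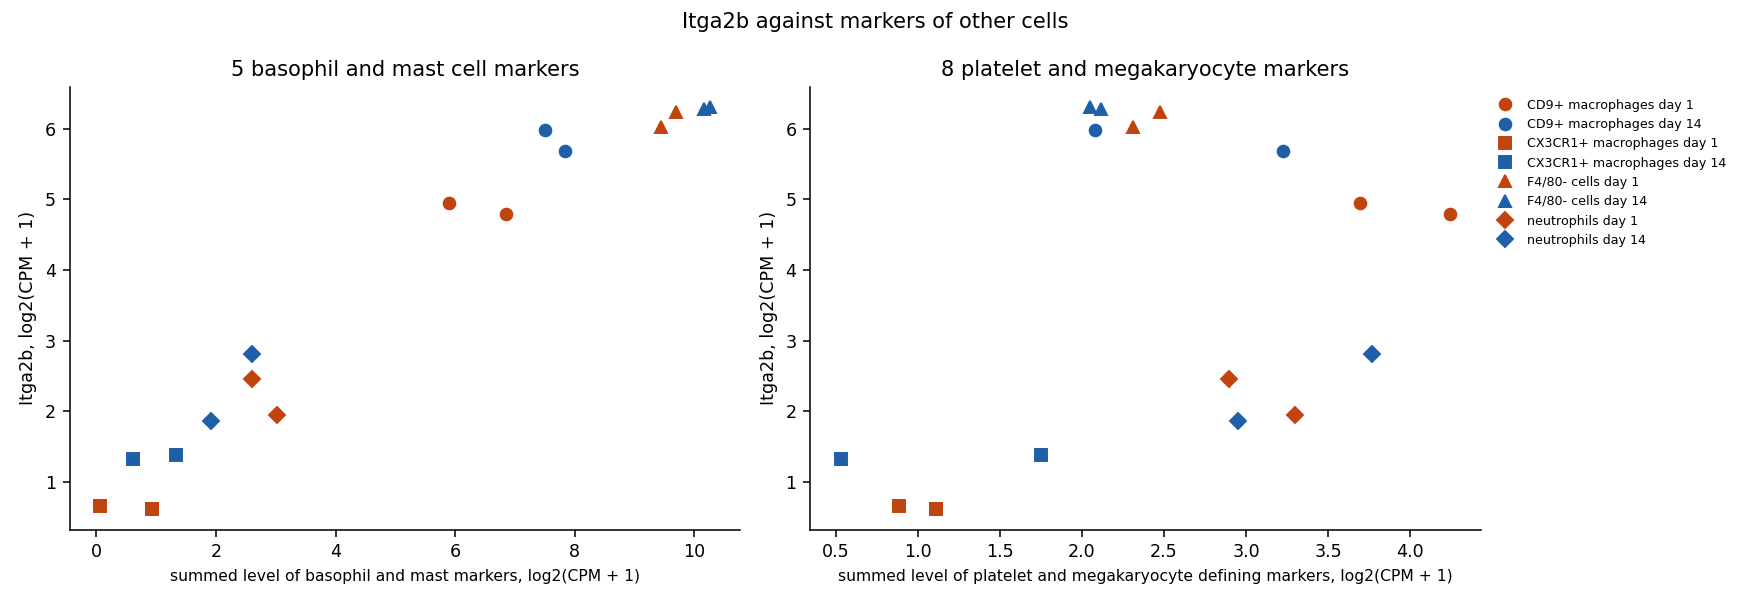
Itga2b against the summed level of 5 basophil and mast cell genes (left) and of 8 platelet and megakaryocyte genes (right), on log2(CPM + 1) axes, with a point for each of the 16 libraries; markers tell populations and days apart. On the left the libraries run from CX3CR1+ macrophages, lowest on both axes, to F4/80- cells, highest on both. Of the genes on the left, all but Fcer1a were among those nearest to Itga2b, so this panel repeats that likeness. On the right the F4/80- libraries combine the highest Itga2b with a sum of at most 4.57 CPM.

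Itgb3 was highest in neutrophils and present in every library. Neutrophils were at 103 and 81.7 CPM on day 1 and 164 and 171 on day 14. CD9+ macrophages were at 45.1 and 34.5 CPM on day 1 and 70.7 and 59.6 on day 14, and F4/80- cells at 27.5 and 38.9 and then 52.9 and 56.9. CX3CR1+ macrophages were at 4.18 and 6.93 CPM on day 1 and 35 and 36.7 on day 14. The CX3CR1+ libraries of day 1 lay below all others, and those of day 14 within the range of F4/80- cells of day 1.

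In each population Itgb3 was higher on day 14 than on day 1 without overlap. The difference was 6.45-fold in CX3CR1+ macrophages (log2 2.70, SE 0.24), 1.64-fold in CD9+ macrophages (log2 0.71, SE 0.21), 1.66-fold in F4/80- cells (log2 0.73, SE 0.21) and 1.81-fold in neutrophils (log2 0.86, SE 0.21). CD9+ macrophages exceeded CX3CR1+ macrophages 7.16-fold on day 1 (log2 2.85, SE 0.24) and 1.82-fold on day 14 (log2 0.86, SE 0.22). On day 14 they were 2.57-fold below neutrophils (log2 -1.36, SE 0.21).

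F5 had a like order. Neutrophils were at 405 and 303 CPM on day 1 and 562 and 559 on day 14. CD9+ macrophages were at 213 and 129 CPM on day 1 and 342 and 372 on day 14, and CX3CR1+ macrophages at 42 and 51.5 and then 139 and 135. F4/80- cells were at 216 and 193 CPM on day 1 and 201 and 229 on day 14, and only there did the days overlap. CD9+ macrophages of day 14 overlapped with neutrophils of day 1, and those of day 1 with F4/80- cells of day 1 and with CX3CR1+ macrophages of day 14.

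The level of F5 was 2.93-fold higher on day 14 in CX3CR1+ macrophages (log2 1.55, SE 0.20), 2.08-fold higher in CD9+ macrophages (log2 1.06, SE 0.20) and 1.58-fold higher in neutrophils (log2 0.66, SE 0.19). In F4/80- cells the difference was 1.05-fold (log2 0.07, SE 0.19). The CD9+ libraries of day 1 differed from each other for F5, and the log2 difference over time in these cells was 1.44 without library 1 of day 1. CD9+ macrophages exceeded CX3CR1+ macrophages 3.66-fold on day 1 (log2 1.88, SE 0.20) and 2.6-fold on day 14 (log2 1.38, SE 0.20).

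Itgb3 and F5 were each other's nearest gene by Pearson correlation (r = 0.963 over 16 libraries), although by rank correlation F5 stood at place 32 for Itgb3. The next for Itgb3 were Palm (0.936), B130006D01Rik (0.933), Gm26577 (0.923) and Plxnc1 (0.921), and for F5 they were Jade2 (0.957), Plxnc1 (0.951), Gm26577 (0.95) and Cd55 (0.947). Plxnc1 encodes a semaphorin receptor and Cd55 a protein that shields cells from complement. Itgb3 reads made up 9.06% to 23.5% of the Itgb3 and F5 reads, with the lowest share in a CX3CR1+ library of day 1.

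A list of 6 neutrophil genes summed to 16150 to 27120 CPM in neutrophils, 4350 to 5602 in F4/80- cells and 735 to 2602 in CD9+ macrophages. In CX3CR1+ macrophages it was 737 to 769 CPM on day 1 and 419.8 to 457 on day 14. In these cells the mean was lower on day 14 for Cxcr2, Mmp8 and S100a8 and higher for Ly6g, Csf3r and Retnlg. In CD9+ macrophages the sum was 735 to 2298 CPM on day 1 and 2045 to 2602 on day 14, and the part of neutrophils in the levels of Itgb3 and F5 in either macrophage population was not tested.

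**Figure D4:**
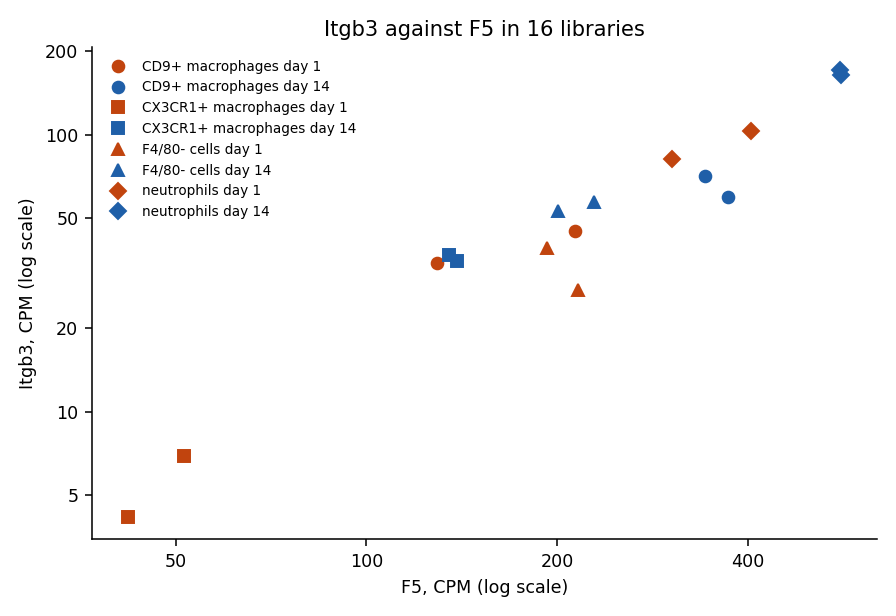
Itgb3 against F5 in CPM, on log axes, with a point for each of the 16 libraries; markers tell populations and days apart. The CX3CR1+ libraries of day 1 are lowest for both genes (4.18 and 6.93 CPM of Itgb3), and the neutrophils of day 14 are highest (164 and 171 CPM).

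Itgav, whose chain pairs with beta3 outside platelets, was ordered differently from Itgb3. CD9+ macrophages were at 147 and 171 CPM on day 1 and 129 and 169.9 on day 14, and CX3CR1+ macrophages at 121 and 138 and then 87.8 and 102. F4/80- cells were at 42.4 and 44.6 and then 52.9 and 59.2 CPM, and neutrophils at 106 and 153 and then 67.2 and 72.9. On day 14 the neutrophils, highest for Itgb3, thus lay below both macrophage populations for Itgav. In the quasi-likelihood test of edgeR, adjusted by Benjamini-Hochberg over the 12031 tested genes, Itgav was higher in CD9+ macrophages than in F4/80- cells on day 1 (log2 1.87, SE 0.18, edgeR adjusted p = 3.25e-06) and day 14 (log2 1.42, SE 0.18, edgeR adjusted p = 6.34e-05).

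Other genes of the pathway were followed in 7 lists of companion genes, which leave the members out: platelet granule genes, platelet receptors, megakaryocyte regulators, beta3 partners and activators, clotting factors, clotting inhibitors, and genes of fibrinolysis, the breakdown of fibrin. The clotting factor list also holds genes for the processing and export of such factors, and the inhibitor list also holds Gas6. Of 89 listed genes, 79 were in the table and 56 passed the filter on low values (a mean of at least 3 CPM in at least 1 group). A gene was called when its adjusted p was under 0.05 and its log2 fold change was at least 1 in size. Comparisons that share libraries are given side by side and were not set against each other.

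Over time, 7 of the 56 companion genes were called higher on day 14 in CD9+ macrophages, where 4.74% of all tested genes were called higher, and 7 were called lower (3.42% of all). In CX3CR1+ macrophages 3 were higher (2.44% of all) and 9 lower (3.46%). In F4/80- cells edgeR called 0 higher (1.13%), with 2 at an unadjusted p under 0.05 and 0 called by DESeq2, and 4 were lower (2.18%). In neutrophils 1 was higher (3.75%) and 14 were lower (10.5%). The median log2 change of the 56 genes was -0.15, -0.14, -0.12 and -0.22 in this order, against 0.02, 0.04, 0.01 and 0.03 over all tested genes. With genes that were at 0 in a group set to their bound, the last 2 medians were -0.09 and -0.12. The count of 14 in CD9+ macrophages was 9 without library 2 of day 1 and 8 without library 1 of day 14. The count of 12 in CX3CR1+ macrophages was 4 without library 2 of day 1, and 5 and 6 without library 1 or 2 of day 14.

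The list of clotting factors also holds genes for their processing and export, such as Mcfd2. Of its 7 tested genes, 4 fell in CD9+ macrophages (3.42% of all tested genes), with a median log2 change of -1.34 (0.02 over all). By edgeR 0 rose, none had an unadjusted p under 0.05 in that direction, and DESeq2 called 0. F10 encodes factor X, whose active form uses factor V as its cofactor. It was at 329.5 and 551 CPM on day 1 and 93.3 and 101 on day 14 (log2 -2.18, SE 0.22, edgeR adjusted p = 1.64e-05). F7, the protease that starts clotting with tissue factor, went from a mean of 26.2 to 7.0 CPM (log2 -1.91, SE 0.46, edgeR adjusted p = 0.0109). F13a1, which crosslinks fibrin, was at 1419 and 1817 and then 694 and 581 CPM (log2 -1.34, SE 0.23, edgeR adjusted p = 0.00116). Mcfd2, which helps factor V leave the endoplasmic reticulum, was the other one (log2 -1.13, SE 0.16, edgeR adjusted p = 0.000287). Left-out libraries ended some of these calls: F7 was not called without CD9+ library 1 of day 14 (log2 -1.42) or with only the 4 libraries compared (log2 -1.91), nor Mcfd2 without CD9+ library 2 of day 1 (log2 -0.92) or when scaled by library size alone (log2 -0.94). F5 itself was higher on day 14 in these cells.

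In neutrophils 5 of the 7 tested genes of the clotting factor list fell, Mcfd2 among them (10.5% of all tested genes fell). The median was -2.34, against 0.03 over all tested genes. By edgeR, by unadjusted p and by DESeq2 0 of the 7 rose. F10 was at 246 and 296 CPM on day 1 and 11.5 and 7.45 on day 14 (log2 -4.84, SE 0.26, edgeR adjusted p = 9.21e-09). F3, which encodes tissue factor, was at 50.6 and 85.6 and then 12 and 14.8 CPM (log2 -2.34, SE 0.54, edgeR adjusted p = 0.00452), and at most 4.85 CPM in any library of the other populations. Its call was lost without neutrophil library 2 of day 1 or neutrophil library 1 of day 14 (log2 -2.2 to -1.91). F7 fell from 141 counts to 2, a ratio of 49.6 with a 95% counting interval of 13.5 to 413. In CX3CR1+ macrophages F7 and Mcfd2 fell, calls that were lost without any 1 of the 4 libraries (log2 -2.28 to -1.36) for F7 and without CX3CR1+ library 2 of day 1 (log2 -0.93) for Mcfd2, and F13a1 was at 2114 and 2108 and then 2479 and 2355 CPM with no call. In F4/80- cells edgeR called 0 of the 7, with 4 lower at an unadjusted p under 0.05 and 1 called lower by DESeq2. F2 was not analysed here.

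The list of clotting inhibitors also holds Gas6, a relative of the inhibitor protein S rather than a clotting inhibitor itself. Of its 6 tested genes, Gas6 and Serpinc1 were called higher and Thbd lower on day 14 in CD9+ macrophages. Of all tested genes 4.74% were called higher there and 3.42% lower. Thbd encodes thrombomodulin, which turns thrombin toward the activation of protein C. It was at 75.9 and 138 CPM on day 1 and 35.1 and 50.02 on day 14 there (log2 -1.33, SE 0.25, edgeR adjusted p = 0.00216), but rose from 85.1 and 94 to 194 and 183 CPM in CX3CR1+ macrophages (log2 1.07, SE 0.24, edgeR adjusted p = 0.00795). The fall of Thbd was no longer called without CD9+ library 2 of day 1 (log2 -0.84) or with only the 4 libraries compared (log2 -1.33), nor its rise without either CX3CR1+ library of day 1 or CX3CR1+ library 1 of day 14 (log2 0.96 to 1.1). Gas6, a ligand of the TAM receptors related to protein S, rose from 0.492 and 1.13 to 16.8 and 26.4 CPM in CD9+ macrophages (log2 4.77, SE 0.69, edgeR adjusted p = 0.00033). Serpinc1, which encodes antithrombin, had 0 counts in the CD9+ libraries of day 1 and 17 in those of day 14, at least 3.18-fold higher, at the edge of the threshold (edgeR adjusted p = 0.05). This call was lost without any 1 of the 4 libraries (log2 6.08 to 6.87) or with upper quartile scaling (log2 6.46) or with a replicate block (log2 6.51). Procr, the protein C receptor, had 0 counts on day 14 in F4/80- cells and neutrophils and was at least 8.7-fold and at least 2.84-fold lower than on day 1, in neutrophils with no call without neutrophil library 2 of day 14 (log2 -6.71).

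Among the genes of fibrinolysis, Serpinb2, which encodes an inhibitor of plasminogen activators, rose in CD9+ macrophages from 14.7 and 21.5 to 44.1 and 57.6 CPM (log2 1.5, SE 0.32, edgeR adjusted p = 0.0055). It fell in F4/80- cells (log2 -3.16, SE 0.48, edgeR adjusted p = 0.00104), in CX3CR1+ macrophages and in neutrophils. The rise was not called without CD9+ library 2 of day 14 (log2 1.27), nor the fall in CX3CR1+ macrophages without CX3CR1+ library 2 of day 1 or either CX3CR1+ library of day 14 (log2 -1.92 to -1.57).

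Of 11 platelet granule genes, Pdgfb rose and Thbs1 fell in CD9+ macrophages (4.74% and 3.42% of all tested genes). Thbs1 encodes thrombospondin 1, which many activated cells also make. It went from 5300 and 10500 to 872 and 969 CPM (log2 -3.1, SE 0.27, edgeR adjusted p = 6.11e-06), and it also fell in CX3CR1+ macrophages (log2 -2.18, SE 0.26, edgeR adjusted p = 7.07e-05) and F4/80- cells. Neutrophils were at 6685 and 8460 and then 7452 and 6844 CPM, with no call. Pdgfb, a growth factor of platelet granules, rose from 1.48 and 3.8 to 18.7 and 24.8 CPM in CD9+ macrophages (log2 3.07, SE 0.49, edgeR adjusted p = 0.000721), and Pdgfa fell in CX3CR1+ macrophages from 3.65 and 3.7 to 0.71 and 0.0946 (log2 -3.14, SE 0.95, edgeR adjusted p = 0.0418), a call that was lost without any 1 of the 4 libraries (log2 -5.2 to -2.36). Selp, which encodes P-selectin, was not called over time in any population. It was highest in neutrophils, at 11.6 to 23.1 CPM.

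Of 9 megakaryocyte regulators tested, Gata1, Zfpm1 and Rgs18 rose in CD9+ macrophages (4.74% of all tested genes). By edgeR 0 fell, with 1 lower at an unadjusted p under 0.05 and 0 called by DESeq2. Gata1 went from 5.06 and 1.34 to 12.4 and 17.6 CPM (log2 2.19, SE 0.68, edgeR adjusted p = 0.0371). All 3 rises depended on single libraries. Gata1 was not called without CD9+ library 2 of day 1 or either CD9+ library of day 14 (log2 1.56 to 2.4) or with only the 4 libraries compared (log2 2.19), Zfpm1 was not without CD9+ library 2 of day 1 or either CD9+ library of day 14 (log2 0.99 to 1.67) or with only the 4 libraries compared (log2 1.51), and Rgs18 was not without CD9+ library 2 of day 1 or either CD9+ library of day 14 (log2 0.68 to 1.13) or with only the 4 libraries compared (log2 1.16). GATA1 and its partner FOG1, which Zfpm1 encodes, also act in eosinophils, basophils or red cell precursors. A list of 4 eosinophil genes summed in the CD9+ libraries to 488 to 547 CPM at day 1 and 5769 to 9369 at day 14, and to at most 118 CPM in all other libraries. The part of eosinophils in the rise of Gata1 was not tested. Red cell genes summed to 3.39 to 9.07 and then 15.4 to 26.3 CPM in CD9+ macrophages. Their sum was higher on day 14 in the other populations too. It was 4.5 to 6.5 and then 12.4 to 86.6 CPM in CX3CR1+ macrophages. In F4/80- cells it was 0.6 to 2.06 and then 10.4 to 11.4 CPM, and in neutrophils 6.76 to 14.3 and then 26.5 to 32 CPM.

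Of 7 platelet receptors tested, edgeR called 0 over time in CD9+ macrophages, with 1 higher and 2 lower at an unadjusted p under 0.05, and DESeq2 called 2 lower. In CX3CR1+ macrophages P2rx1, an ATP receptor, rose from 2.0 and 1.01 to 6.39 and 3.69 CPM (log2 1.72, SE 0.48, edgeR adjusted p = 0.0273), while P2ry12, an ADP receptor, and Itga6, an integrin chain for laminin, fell. P2rx1 was not called without CX3CR1+ library 2 of day 1 or CX3CR1+ library 1 of day 14 (log2 1.22 to 1.28), nor P2ry12 without either CX3CR1+ library of day 14 (log2 -1.65 to -1.57). Of the 8 beta3 partners and activators, Rasgrp2 was the only call over time in any population. It activates Rap1, the switch ahead of the beta3 integrins, and it rose in neutrophils from 121 and 94.5 to 226 and 226 CPM (log2 1.07, SE 0.17, edgeR adjusted p = 0.00027), below the limit on the fold without neutrophil library 2 of day 1 (log2 0.91).

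**Figure D5:**
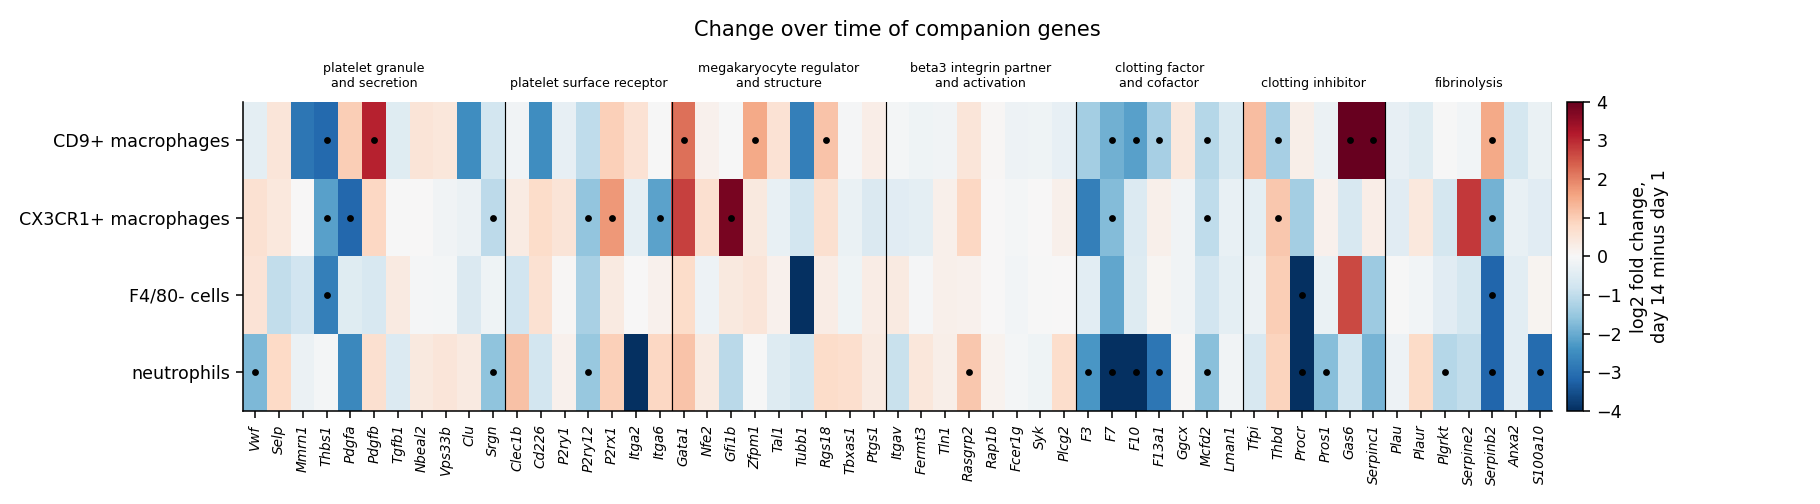
Fitted log2 fold change from day 1 to day 14 of the tested companion genes that are reported here, grouped by list, in the 4 populations. The colour scale stops at 4 in size and a dot marks a called gene. Thbs1 carries a dot in 3 populations, each lower on day 14. The clotting factor list, which includes Mcfd2, carries 4 dots in CD9+ macrophages and 5 in neutrophils, all lower on day 14.

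Between populations, CD9+ macrophages exceeded CX3CR1+ macrophages in 15 of the 56 companion genes on day 1 (6.07% of all tested genes were called higher) and were lower in 1 (2.09%). On day 14 they were higher in 19 (9.26% of all) and lower in 3 (4.9%). Against F4/80- cells 20 were higher on day 1 (8.83%) and 4 lower (6.5%), and 14 were higher on day 14 (6.29%) and 3 lower (1.3%). That last total of 17 was 11 without CD9+ library 2 or F4/80- library 2 of day 14. Against neutrophils 22 were higher on day 1 (28.3%) and 12 lower (21.3%), and 21 were higher on day 14 (29.3%) and 13 lower (19.9%), shares to be read beside the many genes of all kinds called between these cells. The median log2 difference of the 56 genes was 0.28 and 0.61 against CX3CR1+ macrophages on day 1 and day 14, 0.55 and 0.45 against F4/80- cells and 0.53 and 0.62 against neutrophils. Over all tested genes it was between -0.04 and 0.10.

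Mmrn1 and Vwf, platelet granule genes, were higher in the CD9+ cells. Mmrn1 encodes multimerin 1, which binds factor V in platelet granules. It was at 4.5 and 4.93 CPM in CD9+ macrophages on day 1 and had 0 counts in CX3CR1+ macrophages, so it was at least 32.3-fold higher. It was also higher than in F4/80- cells (log2 4.97, SE 1.25, edgeR adjusted p = 0.00955) and neutrophils (log2 4.53, SE 1.28, edgeR adjusted p = 0.00664), which held 6 and 5 counts, calls lost without F4/80- library 1 of day 1 (log2 4.05) and without neutrophil library 1 of day 1 (log2 3.78). On day 14 the CD9+ libraries were at 1.24 and 0 CPM. Vwf, which encodes von Willebrand factor and is also made by endothelium, was at 16.9 and 8.63 CPM in the day 1 libraries of CD9+ macrophages and at 11 and 8.49 by day 14, against at most 5.01 CPM in other libraries, and was called higher in all 6 comparisons with another population when no library was left out. Against neutrophils on day 1 the call was lost without CD9+ library 1 of day 1 or either neutrophil library of day 1 (log2 0.83 to 1.43) or with upper quartile scaling (log2 1.18). On day 14 it was lost without CD9+ library 1 of day 14 or CX3CR1+ library 1 of day 14 (log2 1.66 to 2.03) against CX3CR1+ macrophages, and without either F4/80- library of day 14 (log2 2.57 to 2.96) against F4/80- cells. Clu, which encodes clusterin, was at 9.21 and 2.26 CPM in CD9+ macrophages and 0.357 and 0.334 in neutrophils on day 1 (log2 4.03, SE 1.25, edgeR adjusted p = 0.00985), not called without either neutrophil library of day 1 (log2 3.99 to 4.08).

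Genes with 1 count in CX3CR1+ macrophages of day 1 gave wide intervals. Gfi1b, a repressor in megakaryocyte and red cell development, had 99 counts in CD9+ macrophages, a ratio of 171 with a 95% counting interval of 29.98 to 6820, and Serpine2, which encodes protease nexin 1, had 261, a ratio of 451 with a 95% counting interval of 80.2 to 17870. Serpinc1 went the other way. With 0 counts in CD9+ macrophages on day 1, it was at least 3.32-fold lower than in CX3CR1+ macrophages, at least 7.89-fold lower than in F4/80- cells and at least 11.7-fold lower than in neutrophils. Against CX3CR1+ macrophages the call was lost without either CD9+ library of day 1 or CX3CR1+ library 2 of day 1 (log2 -6.56 to -3.96) or with a replicate block (log2 -6.23).

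Some companions were, like Itga2b, higher in F4/80- cells than in CD9+ macrophages. Itga2, the alpha2 chain of a collagen receptor, was at 18.6 and 15.9 CPM in F4/80- cells on day 1 and 16.7 and 18.5 on day 14, and at 4.92 and 3.08 and then 7.51 and 4.45 in CD9+ macrophages (log2 -2.09, SE 0.45, edgeR adjusted p = 0.00308 on day 1 and log2 -1.55, SE 0.44, edgeR adjusted p = 0.0307 on day 14). Tal1, a transcription factor of blood progenitors, megakaryocytes and mast cells, was lower in CD9+ macrophages on both days (log2 -1.89, SE 0.39, edgeR adjusted p = 0.00202 on day 1 and log2 -1.47, SE 0.38, edgeR adjusted p = 0.0171 on day 14). Cd226, an adhesion receptor of platelets and lymphocytes, was lower on day 14 (log2 -3.71, SE 0.88, edgeR adjusted p = 0.0108). The calls of day 14 were lost without CD9+ library 2 of day 14 or either F4/80- library of day 14 (log2 -1.61 to -1.21) for Itga2, without any 1 of the 4 libraries (log2 -1.62 to -1.29) for Tal1 and without either CD9+ library of day 14 or F4/80- library 2 of day 14 (log2 -3.91 to -3.52) for Cd226.

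On day 14 the CD9+ macrophages stood out from CX3CR1+ macrophages most in Serpinb2 (log2 7.08, SE 0.48, edgeR adjusted p = 6.55e-08), Gas6 (log2 5.67, SE 0.74, edgeR adjusted p = 3.67e-05) and Serpine2 (log2 5.27, SE 0.83, edgeR adjusted p = 0.000208). Serpinb2 and Gas6 were also higher there than in F4/80- cells (log2 6.84, SE 0.46, edgeR adjusted p = 1.32e-07 for Serpinb2 and log2 6.71, SE 0.80, edgeR adjusted p = 3.27e-05 for Gas6). CX3CR1+ macrophages were higher in Thbd (log2 -2.15, SE 0.25, edgeR adjusted p = 1.26e-05), F13a1 (log2 -1.92, SE 0.23, edgeR adjusted p = 1.81e-05) and P2ry1, an ADP receptor (log2 -1.08, SE 0.25, edgeR adjusted p = 0.00464). P2ry1 was not called without CD9+ library 2 of day 14 or CX3CR1+ library 1 of day 14 (log2 -0.97 to -0.84). In these 3 the sign is that of CD9+ minus CX3CR1+. Neutrophils exceeded CD9+ macrophages in F3 on day 1 (log2 -4.38, SE 0.60, edgeR adjusted p = 1.35e-05) and day 14 (log2 -3.4, SE 0.67, edgeR adjusted p = 0.000384), in Selp on both days and in Thbs1 on day 14 (log2 -2.96, SE 0.27, edgeR adjusted p = 2.08e-07). Itga2 and Procr had 0 counts in neutrophils of day 14 and were at least 18.1-fold and at least 10.01-fold higher in CD9+ macrophages.

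The genes with the pattern most like Pf4 over the 16 libraries were Ecm1 (r = 0.952), Sh3bgrl2 (0.951), Lmna (0.941), Acp2 (0.937) and Mmp14 (0.935). Lmna encodes lamins A and C, Acp2 a lysosomal phosphatase and Mmp14 a membrane-bound matrix protease. Ecm1, Sh3bgrl2 and Lmna were still among the 5 nearest by rank correlation, with Gpnmb and Stab1. For Ppbp the nearest was Pf4 (0.86), then Ccdc124 (0.854), Cxcl14 (0.846), Fcrlb (0.845) and Tmeff1 (0.844), of which Pf4 alone was among the 5 nearest by rank. Most libraries hold few Ppbp reads, so its order is less firm.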

How the data were processed

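Bulk RNA-seq of 16 sorted mouse libraries was analysed. The authors aligned paired-end reads to mm10 with STAR and deposited raw counts per gene, made from reads in exons of the Gencode annotation. The strand setting of the counting is not given in the sources used here. The deposited counts were scaled by TMM and fitted with edgeR 4.0.16 (R 4.3.3) by its quasi-likelihood test, in 1 model with 8 group means and no covariate. Of 20200 genes, 12031 had a mean of at least 3 CPM in at least 1 group and were tested. A call needed a Benjamini-Hochberg adjusted p under 0.05 and a log2 fold change of at least 1 in size. Correlations were taken on log2 CPM (prior count 2). Populations of a day probably shared pools of mice, since the study counts fewer mice than 16 separate pools would need, and the number in the titles probably marks the pool, though no source states it. Deviations of same-numbered libraries correlated at 0.012 to 0.141. Exon lengths came from a Gencode annotation of GRCm38. Libraries held 9233952 to 19814119 counts, and a count of 0 was bounded at 3 counts per library. Counting intervals were exact, and shares had Wilson intervals at 95%.

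The members and all gene lists were chosen with earlier results of these data known. Named were the 5 members, up to 3 called companion genes with the highest and up to 3 with the lowest log2 fold change in each comparison, the 5 genes nearest to each member, marker genes, and direct partners (Itgav, F10, F3, F2, Gp9, Gp1bb, Vwf, Selp, Gata1, Thbd and F13a1). Prss34, Zfpm1, Rgs18, Mcfd2, Itga6, P2ry12 and Tubb1 were named beside them to complete a count or a list, some after their values were seen. Some genes that the rule names are not reported here by name, though counts and sums over their lists include them. The test of opposite changes over time was chosen after seeing the data. Alternatives were library size and upper quartile scaling, DESeq2 1.42.0, other filters, no limit on the fold, only the libraries compared, a replicate block, and leaving out each library. The code was tested on simulated data.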

Additional observations from a re-analysis of the deposited data

Results flagged for a closer look

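For 7 companion genes the change from day 1 to day 14 had opposite signs in a pair of populations, and the test of the difference itself passed. It was edgeR's quasi-likelihood test of the interaction, adjusted over all tested genes, and values are differences of log2 changes. No member met this rule. The test bears on the difference, and some of the single changes with opposite signs were not called. They include F13a1 in CX3CR1+ macrophages (log2 0.20) and Itgav in F4/80- cells (0.37) and neutrophils (-0.88). Selp in F4/80- cells (-0.99) and neutrophils (0.80) was not called either. For Thbd the change in CD9+ macrophages was below that in CX3CR1+ macrophages (-2.40, SE 0.34, edgeR adjusted p = 0.00164), F4/80- cells (-2.32, SE 0.35, edgeR adjusted p = 0.00614) and neutrophils (-2.21, SE 0.36, edgeR adjusted p = 0.00121). For Serpinb2 it was above that in CX3CR1+ macrophages (3.37, SE 0.64, edgeR adjusted p = 0.00961), F4/80- cells (4.65, SE 0.58, edgeR adjusted p = 0.00179) and neutrophils (4.67, SE 0.54, edgeR adjusted p = 8.95e-05). F13a1 differed between CD9+ and CX3CR1+ macrophages (-1.54, SE 0.32, edgeR adjusted p = 0.0161) and between CX3CR1+ macrophages and neutrophils (3.08, SE 0.34, edgeR adjusted p = 3.32e-05). Pdgfb differed between CD9+ macrophages and F4/80- cells (3.71, SE 0.76, edgeR adjusted p = 0.0215). Between F4/80- cells and neutrophils, Itgav (1.25, SE 0.25, edgeR adjusted p = 0.00468) and Selp (-1.79, SE 0.54, edgeR adjusted p = 0.0461) differed. For Serpinc1 the difference between CD9+ macrophages and neutrophils (8.38, SE 2.32, edgeR adjusted p = 0.0324) rests on a group with 0 counts, so its size depends on the prior count.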

How the results depend on the processing

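Of 542 member values under alternative settings, 8 had the other sign, each with a library left out. They were F5 (-0.02 and -0.04) in F4/80- cells over time, Ppbp (0.45 and 0.87) and Itga2b (-0.08 and -0.46) in neutrophils over time, F5 (0.06) between CD9+ macrophages and F4/80- cells on day 1, and Ppbp (-0.17) between CD9+ macrophages and neutrophils on day 14. Leaving out each library in turn gave these ranges. In CD9+ macrophages the log2 differences over time were -2.03 to -1.34 for Pf4, -5.13 to -4.21 for Ppbp, 0.82 to 1.10 for Itga2b, 0.74 to 1.44 for F5. In CX3CR1+ macrophages the log2 differences over time were -5.36 to -3.75 for Pf4, -6.56 to -4.58 for Ppbp, 1.37 to 1.49 for Itga2b, 2.32 to 3.05 for Itgb3, 1.37 to 1.66 for F5. In F4/80- cells the log2 differences over time were -2.72 to -1.74 for Pf4, -6.61 to -0.57 for Ppbp, 0.04 to 0.25 for Itga2b, 0.47 to 0.98 for Itgb3. In neutrophils the log2 differences over time were -8.29 to -1.96 for Pf4, -6.67 to 0.87 for Ppbp, -0.46 to 0.72 for Itga2b, 0.70 to 1.04 for Itgb3, 0.47 to 0.89 for F5. Scaling by library size alone moved Itga2b in CD9+ macrophages over time to 1.17. It shifted the median of all genes by up to 0.482 on the log2 scale (CD9+ macrophages against neutrophils, day 14). The companion counts ranged from 8 to 17 (CD9+ macrophages over time), 4 to 8 (CX3CR1+ macrophages over time) and 11 to 15 (CD9+ macrophages against F4/80- cells, day 14) with a library left out. With only the 4 libraries compared, 8 genes were called in CD9+ macrophages over time and 10 between CD9+ and CX3CR1+ macrophages on day 1. With no limit on the fold, 25 were called in neutrophils over time and 34 between CD9+ and CX3CR1+ macrophages on day 14. The causes were not tested.

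Companion genes without a call in the full data changed sign as well. Over time, with a library left out, the ranges were Itgav (-0.32 to 0.06), Vwf (-0.79 to 0.15) and Selp (-0.04 to 1.49) in CD9+ macrophages, Vwf (-0.36 to 1.13) in CX3CR1+ macrophages, F3 (-1.98 to 0.32) and F13a1 (-0.10 to 0.18) in F4/80- cells, and Gata1 (-0.16 to 6.04) in neutrophils. Between CD9+ and CX3CR1+ macrophages on day 1 they were Selp (-0.91 to 0.65) and Thbd (-0.24 to 0.62). Between CD9+ macrophages and F4/80- cells they were F3 (-0.29 to 1.45) and Gata1 (-0.55 to 1.35) on day 1 and F3 (-0.89 to 1.48) and F13a1 (-0.16 to 0.13) on day 14. F13a1 was at 0.00 in the last comparison with only the libraries compared. By library size, Itgav in CD9+ macrophages over time was 0.09 and Selp between CD9+ and CX3CR1+ macrophages on day 1 was -0.06.

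Of 192 calls of companion genes over the 10 comparisons, 72 were lost with at least 1 library left out and 39 under at least 1 other setting. With a replicate block, 15 companion genes were called in CD9+ macrophages over time. The block gave 12, 4 and 16 in CX3CR1+ macrophages, F4/80- cells and neutrophils. F3 between CD9+ macrophages and F4/80- cells on day 14 was 0.02 with it. Between populations of a day, the block ended the calls of Serpinc1 (CD9+ against CX3CR1+ macrophages, day 1) and Procr (CD9+ macrophages against neutrophils, day 1). It also ended those of Tal1 and Zfpm1 (CD9+ against CX3CR1+ macrophages, day 14). Few reads limit Ppbp and Pf4 outside the macrophages of day 1 and the CD9+ macrophages of day 14.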
